A study of Homo sapiens with 6 samples.

Results

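The genes described here are the beta adrenergic receptor ADRB1, the G protein-coupled receptor kinases GRK2, GRK3, GRK4, GRK5 and GRK6, and the beta-arrestins ARRB1 and ARRB2. They were chosen by name, as a receptor for the agonist and the proteins that switch such receptors off, and 7 of the 8 named genes had values among the 19823 genes measured. ADRB1 was not analysed here, so the levels below belong to the kinases and arrestins that act on such receptors. All 7 passed the filter on low values (more than 5 reads in at least 4 samples) and were among the 18130 genes tested.

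Poly(A) RNA-seq was carried out on glutamatergic neurons grown from WTc11, an induced pluripotent stem cell line of human origin. All 6 samples, controls included, carried an RBM12 knockdown, made by CRISPR interference against this RNA-binding protein. Untreated neurons made up 3 samples, and the other 3 were treated with isoproterenol, a synthetic catecholamine agonist of beta adrenergic receptors, at a dose and for a time that the labels do not give. Per the study's methods, the stem cells became neurons through a doxycycline-inducible NGN2 transgene, were of the parental line with no added receptor, and were sorted for the guide RNA. The contrast of isoproterenol with untreated neurons asks which transcripts move with the agonist when RBM12 is depleted. Samples are labelled as separate replicates, numbered 1 to 3 in each group, without stating whether they were separate cultures. The p-values therefore rest on the spread between these samples, which may be technical. In the fits each gene's variance was drawn toward that of other genes, so a gene's own 6 values alone do not set its p-value.

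An agonist-occupied G protein-coupled receptor is phosphorylated by receptor kinases, after which beta-arrestins bind, uncouple the receptor from its G protein and link it to clathrin-mediated uptake. GRK2 and GRK3 are cytosolic and are drawn to the membrane by free G protein beta-gamma subunits, whereas GRK4, GRK5 and GRK6 are held at membranes by lipid contacts. In neurons this machinery sets how long a catecholamine signal lasts, and internalized receptors are then recycled or degraded.

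Recovered reads ran from 18116816 to 21488793 per sample, and the mitochondrial share from 3.44% to 4.54%. RBM12, the targeted gene, stood at 244, 279 and 267 normalized counts without the agonist, in the order of the replicate numbers, and at 195, 238 and 233 with it, a log2 fold change of -0.25 (SE 0.11, adjusted p in limma 0.6072, with the pairs 0.1307). No sample without the knockdown was analysed here, so the extent of the knockdown cannot be read from these values, and RBM12 shares 575 exonic bases with CPNE1 on the same strand. All 12 immediate early genes, which agonists switch on within minutes, were higher in every same-numbered pair, against 18.5% of all genes tested. Of the 12, 1 passed an adjusted p of 0.05 in limma and 11 with the pairs, against 0.0165% and 4.88% of all genes. The list was chosen with earlier results of these data known, so these counts are not an independent check. FOS had a log2 fold change of 1.44 (limma adjusted p = 0.4348, and 0.02684 with the pairs), and NR4A3 one of 0.49 (limma adjusted p = 0.03239). The summed level of 8 neuronal markers was 81852 to 82814 in untreated and 79692 to 82449 in isoproterenol samples. For 5 inhibitory and catecholaminergic markers it was 257 to 349 and 288 to 397. Several of the 8, MAP2 and SYP among them, are not particular to glutamatergic neurons. The glutamate transporter genes SLC17A6 and SLC17A7 had means of 13442 and 3055 normalized counts in untreated and 13606 and 3179 in isoproterenol samples. The 2 astrocyte markers with values, of 5 listed, summed to 160 to 175 and 134 to 157, the 2 proliferation markers to 125 to 152 and 130 to 151, and the 3 pluripotency markers to 19.4 to 19.8 and 15.4 to 28.8, with POU5F1 and SOX2 at a mean of at most 10. The 5 microglia and leukocyte markers were not analysed here. In bulk RNA, fewer cells of a type and less RNA per cell cannot be told apart.

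In untreated neurons GRK2 was the most abundant of the 7 transcripts per length, at 475 ± 10.1 normalized counts per kilobase of exons (SD, n = 3). ARRB2 followed at 373 ± 25.6, GRK3 at 345 ± 3.02, ARRB1 at 267 ± 12.6, GRK5 at 227 ± 14.2, GRK6 at 158 ± 2.65 and GRK4 at 95.4 ± 4.95. Both kinases recruited by beta-gamma subunits lay above the membrane-held ones, and GRK4, best known from testis and kidney, lay lowest. Among the genes of the table, GRK2 stood at percentile 91.2 of this level and GRK4 at percentile 63.2.

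No neighbours in that order overlapped over the 3 untreated samples, although ARRB2 and GRK3 came close, the lowest ARRB2 value being 348 and the highest GRK3 value 347 per kilobase. The order depends on the length used. With the longest annotated transcript in place of all exons, ARRB2 came first at 894 normalized counts per kilobase and GRK2 next at 699, and ARRB1 at 359 moved ahead of GRK3, while GRK5, GRK6 and GRK4 kept their places.

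**Figure D1:**
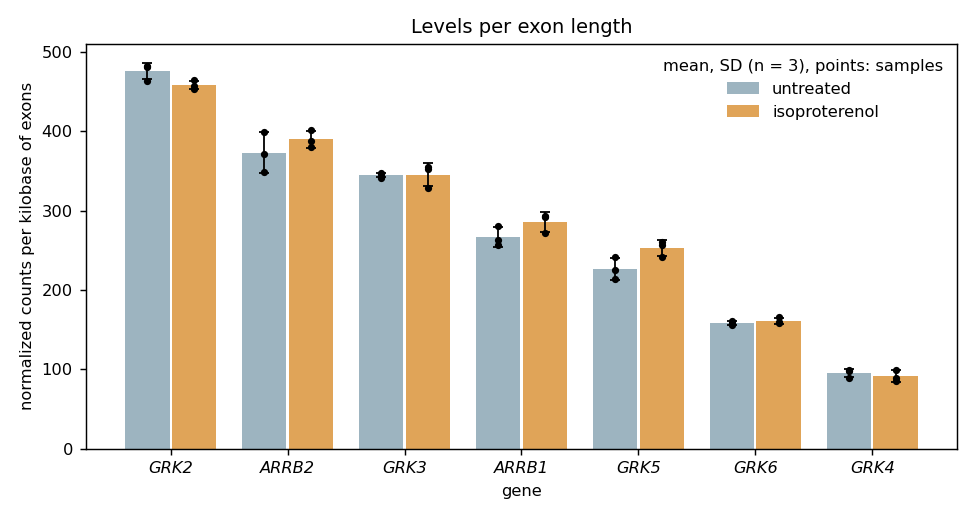
Levels of the 7 transcripts in normalized counts per kilobase of exons (vertical axis) in untreated and isoproterenol neurons. Bars are means, error bars SD (n = 3), points samples. GRK2 is highest, at 475 untreated, and GRK4 lowest, at 95.4, in both groups.

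As shares of the summed level of the 5 kinases per kilobase, GRK2 held 36.6% ± 0.964 in untreated neurons, GRK3 26.5% ± 0.361, GRK5 17.4% ± 0.991, GRK6 12.2% ± 0.217 and GRK4 7.33% ± 0.331 (SD, n = 3). In isoproterenol samples the GRK2 share was 35.0% ± 0.498 and the GRK5 share 19.3% ± 0.773. The ratio of GRK2 to GRK5 per kilobase was 1.92, 2.26 and 2.14 in the untreated samples and 1.78, 1.92 and 1.74 in the treated ones, in replicate order. It was lower in each pair, which follows from GRK2 being lower and GRK5 higher in every pair, and it carries no test. The ratio in isoproterenol replicate 2 lay just above that in untreated replicate 1. The summed level of all 5 kinases was 1301 ± 9.06 and 1309 ± 11.2 per kilobase in the respective groups.

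The annotated positions are in GRCh38 (GENCODE 44), and lengths are the union of the exons of each gene. GRK2 lies on chr11:67266473-67286556, GRK3 on chr22:25564675-25729294, GRK4 on chr4:2963571-3040760, GRK5 on chr10:119207571-119459745, GRK6 on chr5:177403204-177442901 and ARRB2 on chr17:4710596-4721499, all on the plus strand. ARRB1 lies on the minus strand at chr11:75260122-75351705. The levels of GRK6 and ARRB1 carry a limit from overlapping annotation. The sources used here do not state whether counting used the strand, which bears on overlaps with genes of the opposite strand. An overlap on the same strand remains either way. GRK6 shares 399 exonic bases with F12, which is on the opposite strand at a mean of 390 normalized counts, and ARRB1 shares 2338 bases, 23.6% of its exonic length, with a provisional gene model on its own strand and 506 and 216 with genes on the other. GRK3 shares 45 bases with its antisense gene GRK3-AS1. GRK2, GRK4, GRK5 and ARRB2 shared no exonic bases with another gene.

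Isoproterenol acts through cAMP and the transcription factor CREB, which binds the cAMP response element, so the promoters were searched for its core TGACG on both strands (CGTCA in reverse) and the full site TGACGTCA, which contains it. Among 35116 RefSeq promoters (GRCh38.p14, 250 bases before to 50 after the start), 24.6% held the core and 1.85% the full one. The core stood in 2 of the 5 kinase and arrestin promoters that could be read, those of GRK6 and ARRB2, and the full site in none. GRK2, GRK4 and GRK5 held neither in this window. GRK3 and ARRB1 were not searched. The windows that hold it are printed to place the site beside the changes of these transcripts. They are in lower case with the core in capitals, 5′ to 3′ on the plus strand. Counted from the RefSeq promoter starts, the core lies 186 bases before that of GRK6 (window chr5:177426481-177426503) and 84 before that of ARRB2 (window chr17:4710539-4710561). The GRK6 window lies inside the annotated gene given above, so the bases before the annotated GRK6 start were not searched.
GRK6: aggaagaggTGACGtgattggtc
ARRB2: cgatccggcTGACGcatctggcc

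Across the 7 transcripts, isoproterenol came with small differences: fold changes ran from -4.20% for GRK4 to 11.7% for GRK5. In limma without the pairs 0 of 7 passed an adjusted p of 0.05, against 0.0165% of all genes tested, and 1 had an unadjusted p under 0.05, against 7.68%. With replicate number as a block 1 passed, GRK5, against 4.88% of all genes, 2.82% being higher and 2.06% lower, and 2 had an unadjusted p under 0.05, GRK5 and ARRB1, against 16.2%. edgeR with the block called 2, GRK5 and ARRB1, against 5.39% of all genes, and DESeq2 with the block called 0, against 0.789%, and neither tool called any of the 7 without it. Over the 7 the median log2 fold change was 0.02, with 5 higher and 2 lower, beside 0.00153 over all tested genes. In none of the 7 were the groups apart without overlap, which held for 12.9% of all genes, and 5 of 7 differed in 1 direction in all 3 pairs (4 higher, 1 lower), against 36.1% of all genes (18.5% higher, 17.6% lower).

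**Figure D2:**
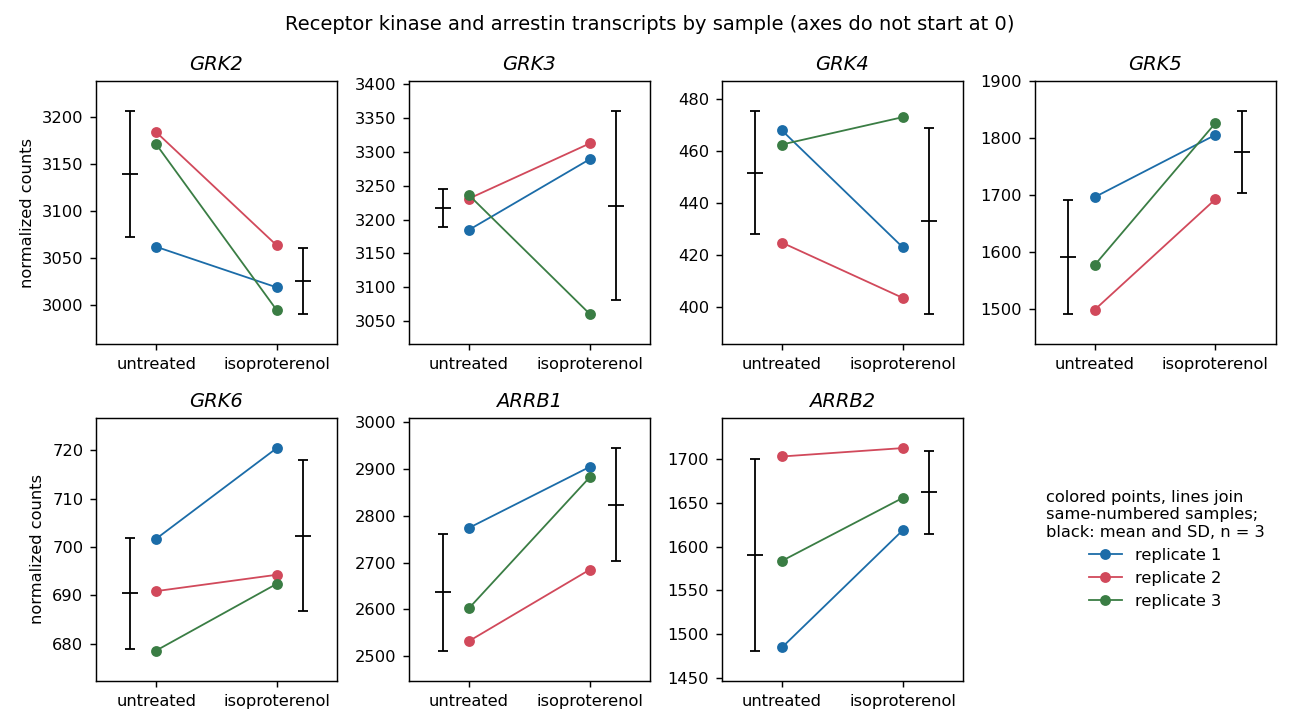
Normalized counts (vertical axes, not starting at 0) of the 7 transcripts in untreated and isoproterenol samples. Colored points are samples, lines join same-numbered replicates, and black marks are means and SD (n = 3). GRK5 and ARRB1 are higher and GRK2 lower in every pair.

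GRK5, a membrane-held kinase that also enters the nucleus, was the transcript that differed most. Untreated samples held 1697, 1499 and 1578 normalized counts, in the order of the replicate numbers as throughout, and isoproterenol samples 1806, 1693 and 1827. Every pair was higher with the agonist, by 0.09, 0.18 and 0.21 on the log2 scale, but the groups overlapped because untreated replicate 1 exceeded isoproterenol replicate 2. The log2 fold change was 0.16 (SE 0.056, 95% interval 0.041 to 0.28), a difference of 11.7% with an interval from 2.90% to 21.2%. Limma gave an adjusted p of 0.5107 without the pairs and 0.005433 with them, where the interval was 5.72% to 17.9%.

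That call depended on the samples and on the tool. Without untreated replicate 1 the log2 fold change was 0.21 and without untreated replicate 2 it was 0.12, a range of over 1.5 times. With the block, limma called GRK5 without replicate 1 (adjusted p = 0.003743) and without replicate 2 (0.03936) but not without replicate 3 (0.1375), and DESeq2 with the block did not call it (0.404). The summed level of the 2 astrocyte markers was lower in every isoproterenol sample than in every untreated one, as given above. Of these, AQP4 was lower in every pair (log2 fold change -0.27, adjusted p in blocked limma 0.3739). S100B was near 0 (-0.02) and split over the pairs, and the groups overlapped for each gene. SYP, a synaptic vesicle gene, was 0.11 lower on the log2 scale with an adjusted p of 4.314e-06 in blocked limma. SYP was the 1 of 8 neuronal markers that passed: 6 of the 8 were higher, with a median of 0.03 on the log2 scale. RBFOX3 (0.07) and SLC17A7 (0.06) were higher in every pair, and SYP and DLG4 (-0.03) were lower in every pair. The part of these markers in the GRK5 result was not tested.

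GRK2, originally named the beta adrenergic receptor kinase, showed 3062, 3183 and 3171 normalized counts in untreated replicates and 3018, 3063 and 2994 in isoproterenol replicates. Each pair was lower, by 0.02, 0.06 and 0.08 on the log2 scale, and the groups overlapped narrowly, untreated replicate 1 lying just under isoproterenol replicate 2. The change was -0.05 on the log2 scale (SE 0.044, adjusted p in limma 0.8133 without and 0.4266 with the block), with an interval from -9.52% to 2.71%.

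GRK3, its closest relative, showed 3185, 3231 and 3236 normalized counts in untreated and 3289, 3312 and 3061 in isoproterenol replicates. The direction split, with pairs 1 and 2 higher and pair 3 lower, and the isoproterenol samples spanned the untreated ones on both sides. The interval of the difference ran from -6.35% to 6.89% (limma adjusted p = 0.9966), so a larger change than this in either direction lay outside it.

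GRK4 showed 468, 425 and 462 normalized counts in untreated and 423, 404 and 473 in isoproterenol replicates. Pairs 1 and 2 were lower and pair 3 higher, and this transcript, the least abundant of the 7, had the widest interval, -15.2% to 8.26% (limma adjusted p = 0.9056). Its log2 fold change of -0.06 turned on single samples, being -0.13 when isoproterenol replicate 3 was left out and -0.01 when replicate 2 of that group was. GRK6, a membrane-held kinase expressed in many tissues, showed 702, 691 and 679 against 720.4, 694 and 692. Its pairs were all higher by little, at most 0.04 on the log2 scale, and the interval was -7.37% to 11.7% (adjusted p = 0.9587 in limma). The log2 fold change of GRK6, 0.02, was 0.0062 without isoproterenol replicate 1.

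ARRB1 encodes beta-arrestin 1, which can also enter the nucleus. It stood at 2774, 2532 and 2603 normalized counts in untreated and 2905, 2685 and 2882 in isoproterenol replicates. As for GRK5, every pair was higher, by 0.07, 0.08 and 0.15 on the log2 scale, and untreated replicate 1 overlapped the treated group. The log2 fold change was 0.10 (SE 0.050), a difference of 7.12% with an interval of -0.378% to 15.2%. The adjusted p was 0.6595 in limma, 0.06037 with the block and 0.04943 in edgeR with the block, and a block with total-count scaling gave 0.04615 in limma.

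ARRB2 encodes beta-arrestin 2, which also links receptors to clathrin. It showed 1485, 1703 and 1584 normalized counts in untreated and 1618, 1713 and 1656 in isoproterenol replicates. The pairs were higher by 0.12, 0.01 and 0.06 on the log2 scale, and the untreated samples spread more widely than the treated ones. The difference was 0.07 on the log2 scale (SE 0.057), with an adjusted p of 0.8266 in limma and 0.4487 under the block, and an interval from -3.61% to 13.6%. It was 0.02 without untreated replicate 1 and 0.12 without untreated replicate 2.

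Taking both arrestins per kilobase, the summed level was 629, 655 and 635 in untreated replicates and 673, 673 and 680 in isoproterenol replicates, the former all below the latter. This sum was looked at with the values of both genes known and carries no test. The ratio of ARRB1 to ARRB2 was 0.719 ± 0.083 in untreated and 0.734 ± 0.051 in isoproterenol samples (SD, n = 3), and overlapped. This ratio rests on the union of exons, and would be lower with the longest transcripts, where the untreated levels were 359 for ARRB1 and 894 for ARRB2.

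**Figure D3:**
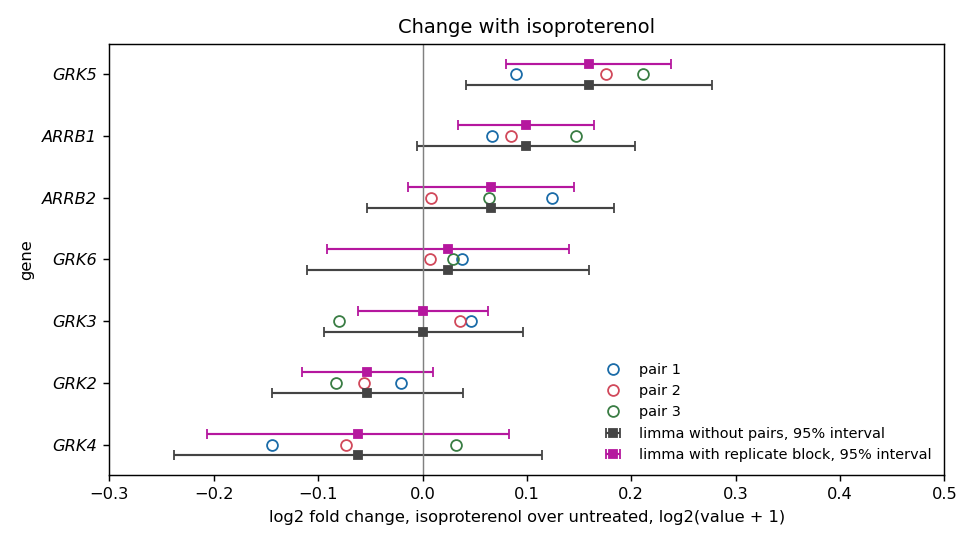
Log2 fold changes of the 7 transcripts, isoproterenol over untreated, on the log2(value + 1) scale. Squares are limma estimates with 95% intervals, without pairs (grey) and with the replicate block (magenta), and open circles are the 3 pairs. The GRK5 interval lies above 0 in both fits, the ARRB1 interval only with the block.

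Replicate 2 was the highest or lowest sample of its group, in the same direction in both groups, for 5 of 7 transcripts (GRK2 and ARRB2 highest, GRK4, GRK5 and ARRB1 lowest), as it was for 34.0% of all genes tested. For replicate 1 it was 3 of 7 and 25.2%, and for replicate 3 it was 1 of 7 and 29.8%. The coefficient of variation was 0.874% to 6.87% over untreated and 1.15% to 8.24% over isoproterenol samples, on 350 to 3339 reads per transcript and sample.

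The gene whose pattern over the 6 samples was most like that of each transcript, by mean absolute difference of centred log2 levels among 11586 genes, was PGRMC1 for GRK2 (0.00873), CNTNAP5 for GRK3 (0.00546), COCH for GRK4 (0.0103), SORCS3 for GRK5 (0.0109), WDR86 for GRK6 (0.00732), LRRFIP1 for ARRB1 (0.0132) and PPP4R4 for ARRB2 (0.0142). SORCS3, a sorting receptor of the neuronal membrane, was 1234, 1071 and 1125 normalized counts in untreated and 1309, 1206 and 1317 in isoproterenol replicates, so it had the same low replicate 2 as GRK5. These patterns describe 6 samples and carry no test.

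The other genes of receptor regulation were taken from 7 lists of 60 genes, of which 51 had values and 49 were tested. The lists were adrenergic receptors, visual kinases and arrestins, alpha arrestins, clathrin uptake, recycling, ubiquitin ligases with deubiquitinases, and G protein beta and gamma subunits. In limma 0 of 49 passed an adjusted p of 0.05, against 0.0165% of all genes tested, and 4 had an unadjusted p under 0.05, against 7.68%. edgeR and DESeq2 without the block also called 0. With the block 4 passed, 2 higher and 2 lower, against 4.88% of all genes. edgeR with the block also counted 4, against 5.39%, and DESeq2 with the block 2, against 0.789%. The median log2 fold change over the 49 was -0.00705, with 23 higher and 26 lower, and 9 had groups without overlap, against 12.9% of all genes.

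The 5 alpha adrenergic receptors with values, of 8 adrenergic receptors listed, gave no call in limma with or without the block. ADRA2A, an inhibitory receptor that lowers cAMP, was picked out after its values were seen. It stood at 1032, 907 and 1055 normalized counts in untreated and 1092, 1116 and 1087 in isoproterenol replicates, with no overlap between groups (log2 fold change 0.14, limma adjusted p = 0.6275, 0.08148 with the block). ADRA1B, ADRA2C, ADRA1A and ADRA1D had log2 fold changes of 0.12, -0.01, -0.14 and 0.42, the last on a mean of 12.9 normalized counts. The 4 visual kinases and arrestins were not analysed here.

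Among the alpha arrestins, relatives of the beta-arrestins that carry ubiquitin ligases to membrane proteins, 2 of 4 tested fell in blocked limma. ARRDC3, which is known to bind adrenergic receptors, stood at 556, 821 and 629 normalized counts in untreated and 409, 545 and 367 in isoproterenol replicates. All treated values lay below all untreated ones, by 0.44, 0.59 and 0.77 in the 3 pairs, for a log2 fold change of -0.60 (limma adjusted p = 0.5963, and 1.1e-11 with the block). TXNIP, which binds thioredoxin and slows glucose uptake, stood at 156, 397 and 154 against 91.8, 264 and 86.2. Replicate 2 was far above the other two in both groups, so the groups overlapped while each pair was lower, and the log2 fold change was -0.72 (limma adjusted p = 0.857, and 2.567e-06 with the block). ARRDC1 and ARRDC4, at 0.17 and -0.15, did not pass.

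In the clathrin uptake list, adaptor, clathrin and dynamin genes, 0 of 12 passed in either limma fit, 0 had an unadjusted p under 0.05 without the block, and the log2 fold changes lay between -0.07 and 0.04. The same held for 0 of 12 recycling genes of the retromer and Rab families, between -0.10 and 0.11. Of 6 ubiquitin genes NEDD4L, a ligase of membrane channels and receptors, rose with the block: it stood at 3807, 3767 and 3626 normalized counts against 4108, 4152 and 3784. Isoproterenol replicate 3 lay inside the untreated range, and the log2 fold change was 0.10 (limma adjusted p = 0.6196, and 0.01775 with the block).

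Of 10 G protein beta and gamma genes GNG7, a gamma subunit of the brain that pairs with stimulatory G proteins, rose with the block. It stood at 528, 566 and 524 normalized counts in untreated and 656, 635 and 676 in isoproterenol replicates, apart without overlap. Its log2 fold change, 0.28 (SE 0.070, adjusted p in limma 0.253 without and 0.001469 with the block), was larger than that of any kinase or beta-arrestin.

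**Figure D4:**
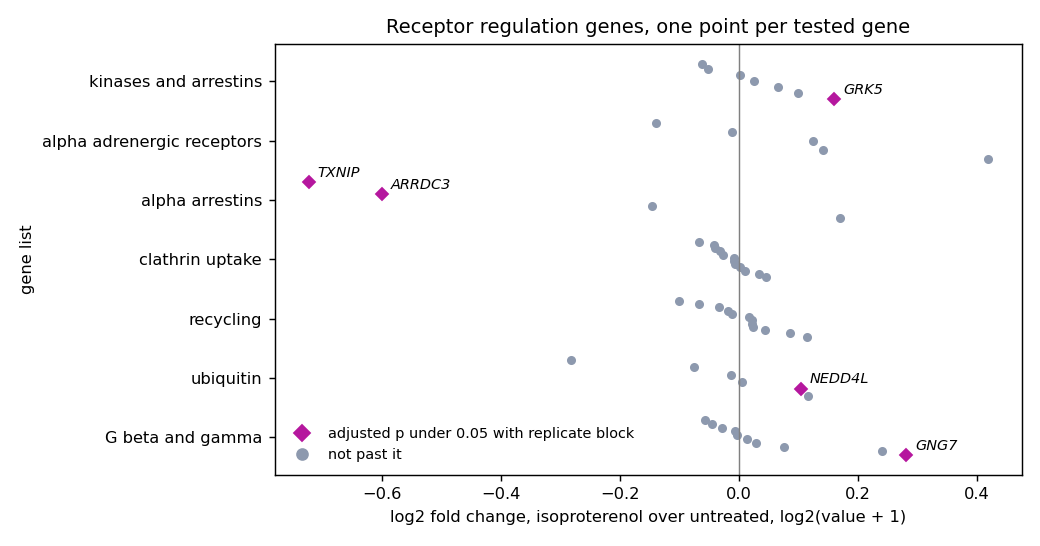
Log2 fold changes (horizontal axis, isoproterenol over untreated, log2(value + 1)) of each tested gene in the kinase and beta-arrestin group and in 6 of the other lists. Magenta diamonds passed an adjusted p of 0.05 in limma with the replicate block: GRK5, ARRDC3, TXNIP, NEDD4L and GNG7.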

How the data were processed

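RNA-seq of 6 samples was analysed, 3 untreated and 3 isoproterenol. Per the labels and the study's methods, poly(A) libraries were prepared with a directional kit, aligned to GRCh38 and counted with featureCounts. The deposited values are a signal per gene: read counts that the authors divided by a DESeq2 size factor per sample, 0.867 to 1.033. Each column's smallest step gave back whole reads for 100% of values (tolerance 0.001). Members and lists were chosen with earlier results of these data known.

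The plan named limma for normalized values and edgeR for raw counts. Because the table held normalized values, limma 3.58.1 (R 4.3.3; trend, robust) was fitted to log2(normalized count + 1) over 18130 genes with more than 5 reads in at least 4 samples, with Benjamini-Hochberg adjustment and two-sided tests. edgeR 4.0.16 and DESeq2 1.42.0 were run on the recovered reads. The main limma, edgeR and DESeq2 fits, with and without the block, were run on simulated counts. The check there was on the size of planted changes, not on the calls.

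Replicate numbers come from the titles. Samples sharing a number deviated together from the means of their groups (correlations 0.269, 0.493 and 0.388, each over 0.1), which was taken as pairing, and blocked values are given where they matter. Replicates of a group differed by more than sampling noise (chi-square per degree of freedom 3.44 to 5.73). By plan all members, RBM12, FOS and NR4A3 were named, with the genes of the other receptor regulation lists called in either limma fit. Outside that rule the alpha adrenergic receptors, ARRDC1, ARRDC4 and some cell type markers were also named. The nearest gene by pattern was named for each member. Other scalings, pseudocounts, filters, samples left out and lengths were tried, and 3 settings were added after seeing the data, the block with TMM, total-count scaling and a pseudocount of 5. GENCODE 44 held 99.6% of the identifiers.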

Additional observations from a re-analysis of the deposited data

How the results depend on the processing

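Over 24 alternatives GRK2 and GRK4 stayed lower and GRK5, GRK6, ARRB1 and ARRB2 higher in isoproterenol samples. GRK3, near 0 at 0.00067, turned lower in 11. Its log2 fold change was -0.00171 with TMM scaling with or without the replicate block, -0.00111 in edgeR, -0.00142 in edgeR with the block, -0.00093 in DESeq2 and -0.00137 in DESeq2 with the block. With 1 sample left out it ran from -0.01999 to 0.03691, and with pair 1, 2 or 3 left out under the block it was -0.02216, -0.0169 and 0.04109.

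Without the pairs, none of the scalings, pseudocounts, filters, tools or samples left out called any of the 7. With the pairing, limma called 1, edgeR 2 and DESeq2 0, and with a pair left out 0 to 1. The added settings called 1 with TMM scaling, 2 with total-count scaling and 1 with a pseudocount of 5. For GRK5 the called log2 fold changes were 0.15904 (limma with the replicate block), 0.15602 (edgeR), 0.15666 (TMM scaling), 0.16275 (total-count scaling) and 0.15866 (pseudocount 5), and, with the block, 0.19359 without pair 1 and 0.15076 without pair 2, while 0.13278 without pair 3 was not called. For ARRB1 they were 0.09684 in edgeR with the block and 0.10294 with the block and total-count scaling. The block changed no other call among the 7. Other receptor regulation genes passed in 4 cases in limma and edgeR with the block and in 2 in DESeq2, in 3 to 4 with a pair left out, and in 4 in each added setting. Genes passing in the whole table numbered 3 in limma, 21 in DESeq2, 885, 977 and 143 in limma, edgeR and DESeq2 with the block, 940, 898 and 910 in the added settings, 547, 682 and 481 with pair 1, 2 or 3 left out under the block, and 2 to 70 with 1 sample left out, 70 being without isoproterenol replicate 2. The causes were not tested. In DESeq2 with the block, 5976 genes had no adjusted p.

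With longest-transcript lengths the untreated level per kilobase was 699 for GRK2, 190.4 for GRK4, 230.0 for GRK6, 359 for ARRB1 and 894 for ARRB2.

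With 3 samples a group, the change of each transcript was bounded only within its own 95% interval, the widest being that of GRK4, -15.2% to 8.26%, on the fewest reads.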
